A study of Mus musculus with 8 samples.

Results

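The genes described here encode the kinase LKB1 (Stk11), the partners that hold it in an active complex (Strada, Stradb and Cab39), and the subunits of its best-known substrate, the AMP-activated protein kinase AMPK (Prkaa1, Prkab1, Prkab2, Prkag1 and Prkag2). They were taken from the deposited gene counts by symbol, and all 9 were found among 31815 gene rows. All 9 also passed the filter on low counts that left 13329 genes to test. Stk11 was picked for its lower level in cells carrying full-length TOX, as seen in these same libraries, so values of all 9 genes in that contrast and in the contrast of the constructs are a description, with no p-value. For both, the number passing the threshold is set beside the share of all genes, and nothing is read from it.

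The series asks how the protein forms of Tox, which encodes an HMG-box nuclear protein of activated and exhausted T cells, differ in gene regulation. Naive CD8+ T cells came from the spleens of OT-I mice (C57BL/6-Tg(TcraTcrb)1100Mjb/J), whose transgenic T cell receptor recognizes an ovalbumin peptide. They were cultured with that peptide for 3 days, received a vector for TOXFL or TOXdeltaN with an IRES-GFP marker 24 h into culture, and were sorted by GFP on day 5. The 4 groups were TOXFL GFP-negative, TOXFL GFP-positive, TOXdeltaN GFP-negative and TOXdeltaN GFP-positive cells, with 2 libraries each, made by SMART-Seq v4 from 8 ng of RNA. All groups share the OT-I genotype and the stimulation. GFP-positive libraries held the brightest 20% of GFP-positive cells. GFP-negative libraries held cells of the same vector-treated cultures without GFP, so there was no culture without vector and no GFP-only vector among them. The age and number of mice are not given in the sources used here, and no label ties a library to its own mouse or culture. Every p-value here is therefore set against library-to-library spread alone, part or all of which may be technical.

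LKB1 is unusual among kinases in being switched on by binding partners. It binds the pseudokinase STRAD, and the scaffold protein MO25, encoded by Cab39 and Cab39l, locks the pair in an active shape. LKB1 then phosphorylates the activation loop of the AMPK catalytic alpha subunit and of a family of related kinases. AMPK is a trimer of an alpha, a beta and a gamma subunit; the gamma subunit senses AMP and ADP, and the active enzyme slows anabolic work and mTORC1 signalling. In T cells, LKB1 and AMPK are known for linking energy supply to growth, survival and memory.

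Library totals ran from 25059112 to 31240067 counts, and values below are CPM, counts scaled to a common library total of 1e+06, with TMM factors of 0.9894 to 1.02. Tox stood at 21.8 to 34.4 CPM in the 4 GFP-negative libraries and at 82.9 to 126 CPM in the 4 GFP-positive ones. Its log2 fold change was 1.96 with TOXFL and 1.82 with TOXdeltaN (adjusted p = 0.0297 and 0.0419, edgeR quasi-likelihood test). These counts do not tell reads of the vector insert from those of the cell's own Tox. Neither induction of that gene nor vector dose can therefore be read from them. The summed level of 5 CD8 T cell markers (Cd3d, Cd3e, Cd3g, Cd8a and Cd8b1) was 3040 to 3510 CPM. Within that sum Cd8b1, singled out after its values were seen, was at 742 and 667 CPM in TOXFL GFP-negative, 614 and 493 in TOXFL GFP-positive, 788 and 657 in TOXdeltaN GFP-negative and 624 and 568 in TOXdeltaN GFP-positive cells. Its log2 fold change was -0.35 with TOXFL (adjusted p = 0.296, and 0.0345 with the replicate number as a block, edgeR) and -0.28 with TOXdeltaN (adjusted p = 0.421, and 0.1 with the block). The part of this in the results below was not tested. Sums were 0.91 to 4.45 CPM for 3 CD4 T cell markers, 0.305 to 2.17 for 5 myeloid markers with Adgre1 at 0 throughout, 0.345 to 1.78 for 2 NK cell markers, and 0.106 to 4.34 for 4 erythroid markers, with the highest sum in TOXdeltaN GFP-positive replicate 1. The 4 B cell markers summed to 13.6 to 17.1 CPM, almost wholly from Cd79b at 13.1 to 16.8 CPM. Among the CD4 T cell markers, Cd4, singled out after its values were seen, followed the replicate number. It had 22 and 1 counts in TOXFL GFP-negative replicates 1 and 2, and 21 and 0 in TOXFL GFP-positive ones. In TOXdeltaN cultures it had 35 and 0 counts in GFP-negative and 36 and 0 in GFP-positive replicates 1 and 2. The reason was not tested. In bulk libraries such as these, fewer cells expressing a gene and less of its RNA per cell cannot be told apart.

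The upstream sequences of Stk11, the gene that differed most, and of Prkaa1, whose product LKB1 phosphorylates, are shown because both genes come up in the comparisons that follow and neither window overlaps an annotated exon. Each is the 250 bases before the gene's start in RefSeq, build GRCm38.p6, read 5′ to 3′ on the plus strand. Capitals mark CCAAT boxes (CCAAT) and GC boxes (GGGCGG), searched on both strands, with overlapping matches each counted.
Stk11, chr10:80115545-80115794: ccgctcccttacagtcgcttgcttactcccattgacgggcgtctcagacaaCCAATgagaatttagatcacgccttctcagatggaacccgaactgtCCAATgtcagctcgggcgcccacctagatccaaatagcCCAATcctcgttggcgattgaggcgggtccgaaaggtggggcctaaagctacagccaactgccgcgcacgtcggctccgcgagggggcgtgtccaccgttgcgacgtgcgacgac
Prkaa1, chr15:5143611-5143860: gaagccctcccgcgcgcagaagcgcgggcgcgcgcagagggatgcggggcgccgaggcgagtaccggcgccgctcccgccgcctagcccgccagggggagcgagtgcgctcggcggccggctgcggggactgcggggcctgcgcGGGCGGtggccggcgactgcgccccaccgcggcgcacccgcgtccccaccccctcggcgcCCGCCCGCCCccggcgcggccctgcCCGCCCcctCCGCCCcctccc
The Stk11 window held 3 CCAAT boxes, no GC box, 24 CpG dinucleotides and a GC content of 59.6%. The Prkaa1 window held 5 GC boxes, 2 of which share bases, no CCAAT box, 45 CpG dinucleotides and a GC content of 85.2%. Neither held the E-box CACGTG. Among 32851 RefSeq windows of the same length, 33.85% held a CCAAT box, 32.74% a GC box and 6.02% an E-box, with medians of 52.4% GC and 6 CpG. All 9 genes had a window in this table. A match to so short a motif is a description of the letters, not of binding.

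Stk11 encodes LKB1 and lies at chr10:80115803-80130682 on the plus strand of GRCm38 (ENSMUSG00000003068.16). Its level was 54.3 and 64.3 CPM in TOXFL GFP-negative replicates 1 and 2, and 28.2 and 15.3 CPM in TOXFL GFP-positive replicates 1 and 2. In the TOXdeltaN cultures it was 62.2 and 59.2 CPM in GFP-negative cells and 54.6 and 44.7 CPM in GFP-positive cells. The TOXFL GFP-positive pair was the lowest of all 8 libraries and overlapped no other group, while the GFP-negative groups overlapped each other. These levels rest on 487 to 1826 counts per library.

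Group means were 59.3 ± 7.06 CPM for TOXFL GFP-negative, 21.8 ± 9.15 for TOXFL GFP-positive, 60.7 ± 2.14 for TOXdeltaN GFP-negative and 49.7 ± 6.99 for TOXdeltaN GFP-positive cells (SD, n = 2 each). The fitted log2 fold change with TOXFL was -1.45 (SE 0.239), which is 0.366 of the GFP-negative level. The TOXFL GFP-positive replicates themselves differed: without replicate 1 the value was -1.96, and without replicate 2 it was -1.07. With TOXdeltaN the log2 fold change was -0.29 (SE 0.231, 95% interval -0.81 to 0.23), and it did not pass the test (adjusted p = 0.614, edgeR). The TOXFL effect minus the TOXdeltaN effect was -1.16 (SE 0.331), and it lay between -1.67 and -0.78 when any 1 library was left out of this fit. GFP-negative cells of both cultures differed by -0.03 (TOXFL minus TOXdeltaN, 95% interval -0.55 to 0.48, adjusted p = 1, edgeR). The TOXFL GFP-negative libraries serve in that comparison and in the TOXFL one.

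**Figure D1:**
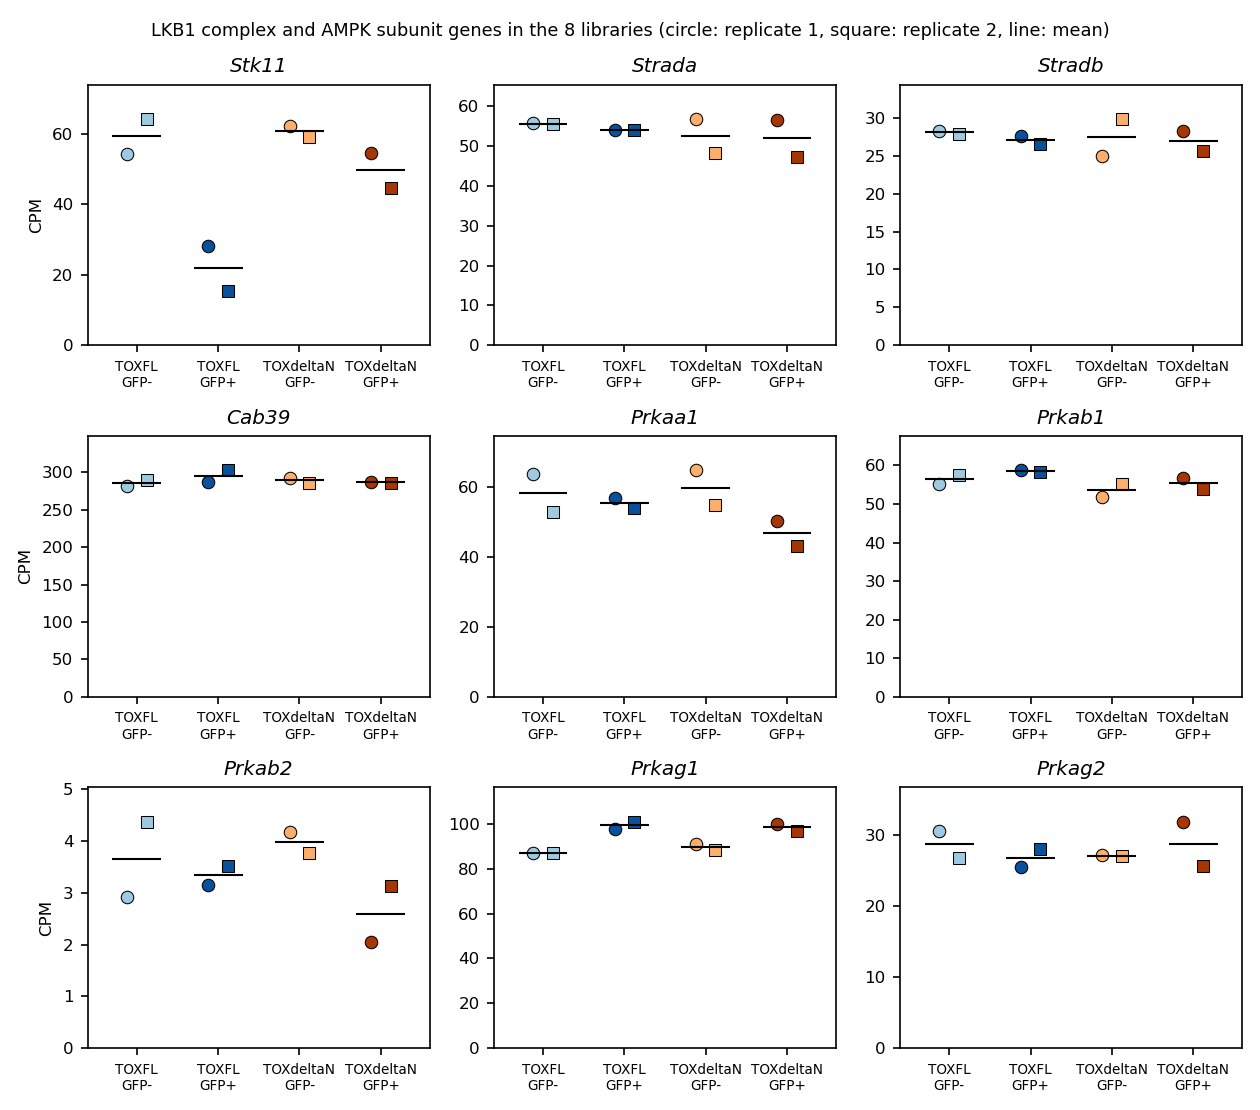
Level of each of the 9 genes in CPM (y axis, from 0) by group (x axis), with a circle for replicate 1, a square for replicate 2 and a line for the mean of the 2. Stk11 sits at 15.3 and 28.2 CPM in the TOXFL GFP-positive libraries and between 44.7 and 64.3 CPM in the other 6, while Cab39 stays between 282 and 303 CPM.

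STRADα, the pseudokinase that binds LKB1 and keeps it in the cytoplasm, comes from Strada (chr11:106163330-106202168, minus strand). Strada stood at 55.8 and 55.4 CPM in TOXFL GFP-negative, 54.1 and 53.9 in TOXFL GFP-positive, 56.9 and 48.3 in TOXdeltaN GFP-negative and 56.5 and 47.3 in TOXdeltaN GFP-positive cells. All 8 values lie within a narrow band, and the TOXdeltaN replicates differed from each other more than any pair of group means did. The log2 fold change was -0.04 (SE 0.119) with TOXFL and -0.02 (SE 0.119, 95% interval -0.29 to 0.25, adjusted p = 0.959, edgeR) with TOXdeltaN. Exons of Strada and of Ccdc47, a neighbour on the same strand with 3254 to 4680 counts, share 158 bp, so a small part of its reads could belong to either.

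Stradb, at chr1:58973522-58995715 on the plus strand, encodes the other STRAD. Its level was 28.2 and 27.9 CPM in TOXFL GFP-negative cells, 27.6 and 26.6 in TOXFL GFP-positive, 25.0 and 29.9 in TOXdeltaN GFP-negative, and 28.3 and 25.6 in TOXdeltaN GFP-positive cells. The TOXFL pairs did not overlap but differed by less than the TOXdeltaN GFP-negative replicates did. Fitted log2 fold changes were -0.05 with TOXFL and -0.03 with TOXdeltaN (adjusted p = 0.945, edgeR).

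Cab39 (chr1:85793441-85851576, plus strand) encodes MO25α, the scaffold of the complex, and was the most abundant of the 9. It stood at 282 and 289 CPM in TOXFL GFP-negative, 287 and 303 in TOXFL GFP-positive, 293 and 286 in TOXdeltaN GFP-negative and 287 and 286 in TOXdeltaN GFP-positive cells. The ranges of the GFP-positive and GFP-negative groups overlapped for both constructs. Its log2 fold change was 0.05 (SE 0.0813) with TOXFL and -0.01 (SE 0.0813, adjusted p = 0.959, edgeR) with TOXdeltaN. The related scaffold gene Cab39l, which is not among the 9, ranged from 77.0 to 89.7 CPM.

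Prkaa1 encodes AMPKα1, the catalytic subunit with the threonine that LKB1 phosphorylates, and lies at chr15:5143861-5181899 on the plus strand. Its level was 63.6 and 52.8 CPM in TOXFL GFP-negative cells, 56.8 and 53.9 in TOXFL GFP-positive, 64.8 and 54.8 in TOXdeltaN GFP-negative, and 50.3 and 43.2 in TOXdeltaN GFP-positive cells. Prkaa1 was lower, without overlap, in the TOXdeltaN GFP-positive than in the TOXdeltaN GFP-negative pair, as were 20.8% of all tested genes. With TOXFL the groups overlapped. Means were 59.8 ± 7.11 CPM in TOXdeltaN GFP-negative and 46.7 ± 4.99 in TOXdeltaN GFP-positive cells (SD, n = 2 each), a log2 fold change of -0.35 (SE 0.132, 95% interval -0.65 to -0.06). Without the replicate block, no other of the members had an unadjusted p under 0.05 in that comparison, a level that 12.2% of all genes tested reached. With the block Prkab2 did as well, as did 19.3% of all genes. After adjustment the difference did not pass (adjusted p = 0.368, and 0.0839 with the replicate number as a block, edgeR). With TOXFL the log2 fold change was -0.07 (SE 0.132). The other catalytic subunit gene, Prkaa2, had at most 6 counts in any library and was not tested.

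AMPKβ1, which carries a glycogen-binding module and bridges the alpha and gamma subunits, is the product of Prkab1 (chr5:116013586-116024508, minus strand). Prkab1 was at 55.1 and 57.6 CPM in TOXFL GFP-negative, 58.8 and 58.2 in TOXFL GFP-positive, 51.9 and 55.2 in TOXdeltaN GFP-negative and 56.8 and 54.0 in TOXdeltaN GFP-positive cells. The log2 fold change was 0.05 with either construct (adjusted p = 0.847 with TOXdeltaN, edgeR). Prkab2, for the β2 subunit, lies at chr3:97658193-97673812 on the plus strand and was the least abundant of the 9, with 60 to 124 counts per library. It stood at 2.91 and 4.37 CPM in TOXFL GFP-negative, 3.15 and 3.51 in TOXFL GFP-positive, 4.17 and 3.76 in TOXdeltaN GFP-negative and 2.05 and 3.12 in TOXdeltaN GFP-positive cells. The TOXdeltaN pairs did not overlap, but the difference did not pass the test: its log2 fold change was -0.62 (SE 0.32, 95% interval -1.34 to 0.10, adjusted p = 0.46, and 0.249 with the block, edgeR). With TOXFL it was -0.13 (SE 0.316).

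Prkag1 encodes AMPKγ1, the nucleotide-sensing subunit, at chr15:98812797-98831521 on the minus strand. It stood at 87.1 and 86.9 CPM in TOXFL GFP-negative, 97.7 and 101 in TOXFL GFP-positive, 91.0 and 88.1 in TOXdeltaN GFP-negative and 99.8 and 97.0 in TOXdeltaN GFP-positive cells. Its GFP-positive pair was above its GFP-negative pair with both constructs, as was the case for 11.4% of all tested genes. The differences were small, with log2 fold changes of 0.19 (SE 0.0854) with TOXFL and 0.14 (SE 0.0854, 95% interval -0.06 to 0.33) with TOXdeltaN, and the TOXdeltaN one did not pass the test (adjusted p = 0.527, edgeR). Exons of the opposite-strand gene B130046B21Rik, with 22 to 93 counts, cover 950 bp of Prkag1. SMART-Seq libraries do not mark the strand, so how the estimated counts divide the reads there between the genes is uncertain. Prkag2, for AMPKγ2 (chr5:24862744-25100642, minus strand), was at 30.6 and 26.8 CPM in TOXFL GFP-negative, 25.5 and 28 in TOXFL GFP-positive, 27.2 and 27.1 in TOXdeltaN GFP-negative and 31.9 and 25.7 in TOXdeltaN GFP-positive cells. Its groups overlapped for both constructs, with log2 fold changes of -0.10 and 0.09 (adjusted p = 0.807 with TOXdeltaN, edgeR). No count fell on Prkag3, the gene of AMPKγ3, in any library; 3 counts, the limit that a count of 0 allows, would be 0.0941 to 0.12 CPM, for counting error only.

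**Figure D2:**
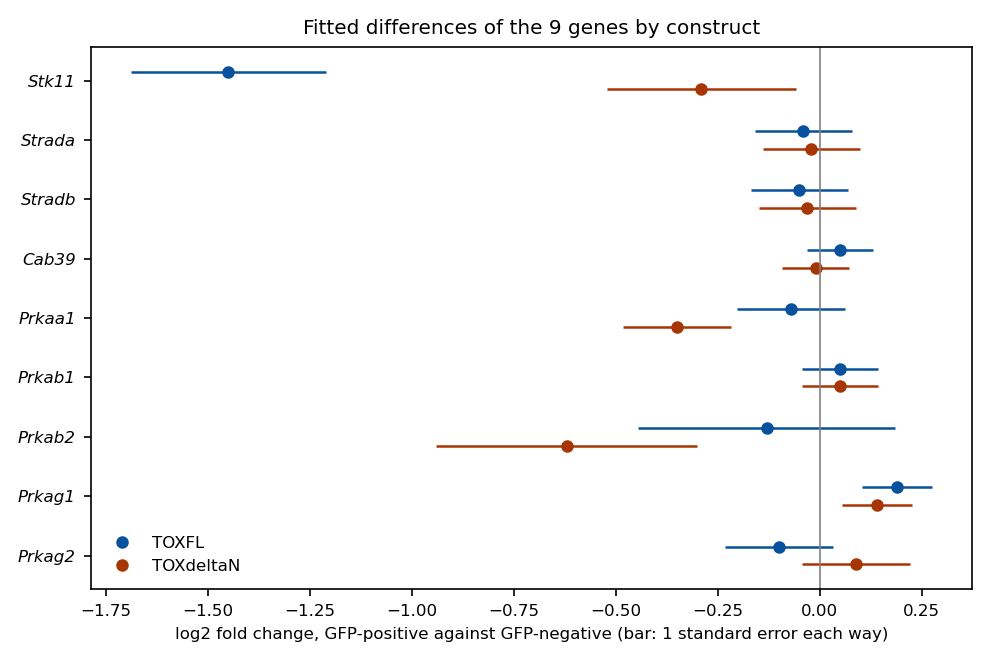
Fitted log2 fold change of GFP-positive against GFP-negative cells (x axis) for the 9 genes (y axis), in blue for TOXFL and red for TOXdeltaN, with bars of 1 standard error each way. Stk11 with TOXFL, at -1.45, lies apart from the other 17 values, which run from -0.62 for Prkab2 to 0.19 for Prkag1.

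Across the 9 genes, none passed an adjusted p of 0.05 in the TOXFL comparison, in which 0.045% of all tested genes did. With the replicate number as a block, 1 of 9 passed, Stk11, against 3.48% of all genes (1.97% as lower). Stk11 was selected from that contrast, so its call restates the selection. Leaving TOXFL GFP-negative replicate 2 out of the blocked fit ended the Stk11 call, at a log2 fold change of -1.16. In the TOXdeltaN comparison none of the 9 passed, beside 0.03% of all genes, nor with the block, beside 1.65%. Leaving out TOXdeltaN GFP-positive replicate 1 raised the share of genes passing from 0.03% to 11.3% with none of the 9 among them, and in the blocked fit to 19.1% with 1 of the 9, Prkaa1. The replicates of that group differed from each other more than those of any other group (chi-square per degree of freedom 38.7, against 11.2 to 18.9). That measure used, for each group, all gene rows above a minimum summed count, not the tested set, and no TMM factors.

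None of the 9 passed in the comparison of the construct effects or in that of the GFP-negative groups by edgeR, where 0.0% of all genes passed. At an unadjusted p under 0.05 the shares of all genes were 2.39% and 2.46%, and DESeq2 called 7 and 8 genes. For the GFP-negative groups no member had an unadjusted p under 0.05, and member log2 differences ran from -0.12 to 0.08. The median log2 fold change of the 9 was -0.0486 with TOXFL, beside -0.00302 over all tested genes, and -0.0196 with TOXdeltaN, beside 0.00544. In each, 3 of the 9 were above 0 and 6 below, while 49.4% and 50.8% of all tested genes were above 0. For the 8 genes other than Stk11, the TOXFL effect minus the TOXdeltaN effect ran from -0.19 for Prkag2 (SE 0.187) to 0.28 for Prkaa1 (SE 0.187) and 0.49 for Prkab2 (SE 0.449).

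By order alone, the GFP-positive and GFP-negative pairs did not overlap for 5 of 9 genes with TOXFL, where 50.4% of all tested genes did not, and for 4 of 9 with TOXdeltaN, where 42.0% did not. Both shares are near those of all genes. Stk11 was below its GFP-negative pair with both constructs and Prkag1 above it with both, as 11.4% of all genes were in each direction. Between the GFP-positive groups 5 of 9 did not overlap, beside 32.0% of all genes. Stk11 was lower with TOXFL, as were 16.1% of all genes. Cab39, Prkaa1, Prkab1 and Prkab2 were higher, beside 15.9% of all genes. For Cab39 the nearest values of the groups are both 287 CPM as printed, and for Prkab2 they were 3.15 and 3.12 CPM. Nothing is read from this order. Between the GFP-negative groups 1 of 9, Prkag1, did not overlap, beside 33.5%.

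Levels of different genes were compared per kilobase of the longest coding sequence in the annotation. Cab39 led with a median of 281 CPM per kb over the 8 libraries (range 276 to 296), followed by Prkag1 at 94.9 (87.8 to 102) and Prkab1 at 69.1 (64.1 to 72.6). Strada at 42.4 (36.6 to 44.0), Stk11 at 41.6 (11.7 to 49.2) and Prkaa1 at 32.4 (25.8 to 38.6) overlapped in their ranges. Stradb followed at 22.1 (19.9 to 23.8) and Prkag2 at 16 (15 to 18.8), with Prkab2 last at 4.1 (2.52 to 5.37). Scaling by all exonic bases instead put Prkag1 first at 43.2 and Cab39 next at 40.6 CPM per kb. It also put Stk11 at 11.9 and Prkaa1 at 11.7 above Strada at 9.83, and Prkag2 at 4.19 above Stradb at 3.82. The order within each of these sets therefore depends on the length used.

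**Figure D3:**
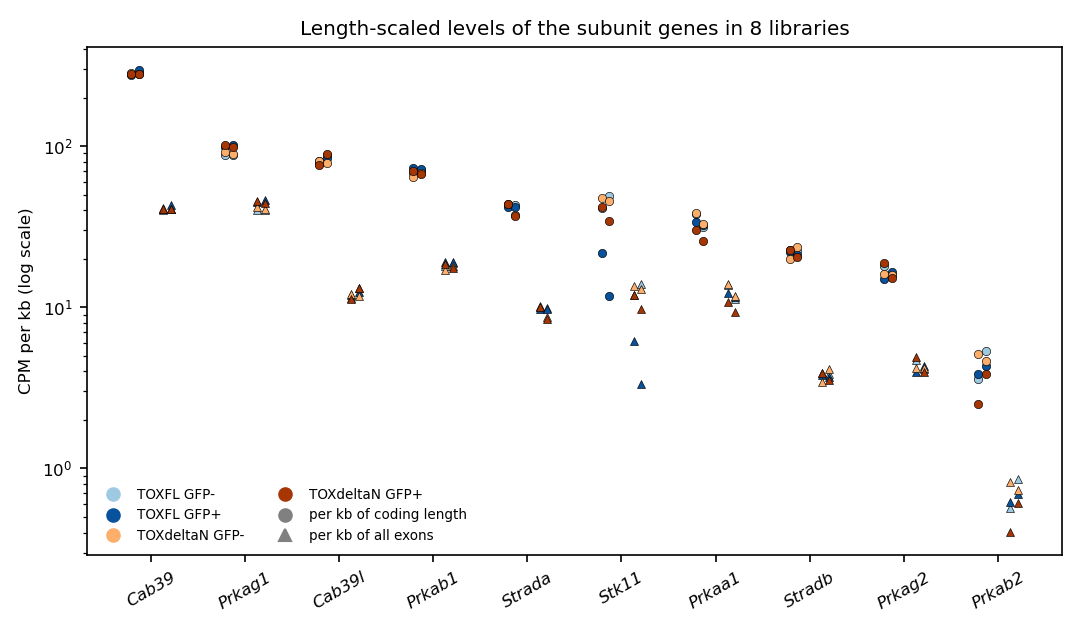
Level per kilobase in CPM per kb on a log axis (y) for the 9 genes and Cab39l (x), with circles scaled by coding length and triangles by all exonic bases, 1 point per library and colours for the groups. Cab39 and Prkag1 are the highest and Prkab2 the lowest on both scales, and the spread over libraries is widest for Stk11.

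Within each pair of interchangeable subunits, 1 gene supplied most of the coding-length-scaled level in every library. Prkab2 made up 3.47 to 7.42% of the 2 beta genes, Prkag2 13.2 to 17% of Prkag1 and Prkag2, Stradb 31.2 to 38.9% of the 2 STRAD genes, and Cab39l 21.3 to 24.1% of the 2 MO25 genes. The ratio of Stk11 to the summed STRAD genes was 0.632 and 0.755 in TOXFL GFP-negative cells and 0.338 and 0.186 in TOXFL GFP-positive cells. It was 0.744 and 0.739 in TOXdeltaN GFP-negative and 0.63 and 0.6 in TOXdeltaN GFP-positive cells. The ratio of Prkag1 to Prkaa1 was 2.32 and 2.79, 2.91 and 3.18, 2.38 and 2.73, and 3.36 and 3.8 in the same group order, higher in each GFP-positive pair than in its GFP-negative pair. In that order Prkab1 to Prkaa1 was 1.79 and 2.26, 2.14 and 2.23, 1.66 and 2.09, and 2.34 and 2.59, overlapping with TOXFL. Stk11 to Prkaa1 was 1.1 and 1.56, 0.636 and 0.363, 1.23 and 1.39, and 1.39 and 1.33, overlapping with TOXdeltaN. How often ratios of other gene pairs separate was not tested.

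Other genes of the pathway were taken as 7 lists that hold 69 genes, of which Rptor and Tsc2 each stand in 2 lists. They were chosen with earlier results of these data known. In edgeR without the block, no gene of any list passed in any of the 4 comparisons. Among the other kinases and regulators of AMPK, 11 of 11 were tested, and those that passed with the replicate block were sestrins, stress-induced proteins that restrain mTORC1. Sesn2 stood at 29.7 and 29.2 CPM in TOXFL GFP-negative, 38.4 and 40.3 in TOXFL GFP-positive, 30.6 and 30.5 in TOXdeltaN GFP-negative and 41.9 and 45.2 in TOXdeltaN GFP-positive cells. Its GFP-positive pair was above its GFP-negative pair with both constructs, as was the case for 11.4% of all tested genes. Its log2 fold change was 0.42 with TOXFL (SE 0.0982, adjusted p = 0.142, and 0.0437 with the block, edgeR) and 0.51 with TOXdeltaN (SE 0.098, adjusted p = 0.174, and 0.036 with the block).

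Sesn1 moved the other way with TOXdeltaN. It was at 122 and 118 CPM in TOXdeltaN GFP-negative and 87.2 and 85.8 in TOXdeltaN GFP-positive cells, a log2 fold change of -0.47 (SE 0.0966, adjusted p = 0.206, and 0.0387 with the block, edgeR). With TOXFL it was at 117 and 120 CPM against 89.9 and 104, a log2 fold change of -0.29 (SE 0.0963, adjusted p = 0.107 with the block), and the effects of the constructs differed by 0.18 (adjusted p = 1, edgeR). The list's median log2 fold change was 0.0728 with TOXFL and -0.113 with TOXdeltaN. In the blocked fit the Sesn2 call with TOXFL was lost when any of 6 libraries was left out and remained only without either TOXdeltaN GFP-positive replicate. With TOXdeltaN the Sesn2 call remained only without TOXdeltaN GFP-positive replicate 1, and the Sesn1 call was lost without any GFP-negative library.

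Among AMPK substrates, 17 of 17 were tested. Foxo3, a FOXO transcription factor that AMPK phosphorylates and that acts in T cell quiescence, was at 10.3 and 13.1 CPM in TOXFL GFP-negative and 6.02 and 5.62 in TOXFL GFP-positive cells. In TOXdeltaN cultures it was at 11.7 and 10.6 CPM in GFP-negative and 8.13 and 9.79 in GFP-positive cells. Foxo3 was lower, without overlap, in the TOXFL GFP-positive than in the TOXFL GFP-negative pair, as were 25.5% of all tested genes. Foxo3 was also lower there than in the TOXdeltaN GFP-positive pair, as were 16.1%. Its log2 fold change with TOXFL was -1.01 (SE 0.184, adjusted p = 0.0939, and 0.0153 with the block, edgeR), and with TOXdeltaN -0.32 (SE 0.181, adjusted p = 0.492). The difference between the construct effects was -0.69 (SE 0.258, adjusted p = 1, edgeR). In the blocked fit its call was lost when any TOXFL library was left out. The medians of the list were 0.035 with TOXFL and -0.089 with TOXdeltaN. No substrate passed with TOXdeltaN, where Acacb had the most negative value at -1.23, from 12 to 49 counts per library (adjusted p = 0.396), and Pfkfb2 was at -0.41.

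The CRTC coactivators and class IIa histone deacetylases are held in the cytoplasm when AMPK-related kinases phosphorylate them, and 7 of 7 were tested. Hdac4 stood at 77.9 and 74.3 CPM in TOXFL GFP-negative and 57.4 and 60.0 in TOXFL GFP-positive cells, a log2 fold change of -0.38 (SE 0.0909, adjusted p = 0.145, and 0.045 with the block, edgeR). It was at 64.1 and 60.4 CPM in TOXdeltaN GFP-negative and 56.4 and 55.6 in TOXdeltaN GFP-positive cells, where its log2 fold change was -0.15 (adjusted p = 0.504). The construct effects differed by -0.22 (adjusted p = 1). In the blocked fit the Hdac4 call with TOXFL remained only without either TOXdeltaN GFP-positive replicate. Of the 7, 6 were below 0 with TOXFL (median -0.184) and all 7 with TOXdeltaN (median -0.154). Of all tested genes, 49.4% were above 0 with TOXFL and 50.8% with TOXdeltaN. None of the 7 passed with TOXdeltaN, where the most negative were Hdac9 at -0.81, from 7 to 32 counts, and Crtc3 at -0.39 (adjusted p = 0.653 and 0.322, edgeR).

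Of 12 AMPK-related kinases that LKB1 activates, 9 were tested, and none passed with or without the block. With TOXFL 8 of 9 were below 0, at a median of -0.221, and with TOXdeltaN 6 of 9, at -0.143. Of all tested genes, 49.4% were above 0 with TOXFL and 50.8% with TOXdeltaN, at medians of -0.00302 and 0.00544. The largest absolute log2 fold changes with TOXFL were those of Nuak2, at 3 to 30 counts per library, with -0.87 (SE 0.892), and Sik2 at -0.36 (SE 0.214, adjusted p = 0.517, edgeR). With TOXdeltaN they were Nuak2 at -1.26 and Brsk2, at 9 to 16 counts, at 0.29. Mark1, Nuak1 and Brsk1 had at most 6, 4 and 2 counts in any library and were not tested.

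The mTORC1 genes and their TSC-RHEB input, 11 of 11 tested, had medians of -0.0218 with TOXFL and -0.0725 with TOXdeltaN, and none passed in either fit. Tsc1, a subunit of the complex that holds RHEB inactive, had a log2 fold change of -0.42 with TOXFL (adjusted p = 0.206), and Eif4ebp2, a translation repressor under mTORC1, of -0.39 (adjusted p = 0.266, edgeR). With TOXdeltaN the largest were Eif4ebp1 at 0.28 (adjusted p = 0.478) and Mlst8 at -0.25 (adjusted p = 0.438). Among 10 regulators of mitochondrial and lysosomal genes, 9 were tested and none passed. Ppargc1b, a coactivator of mitochondrial genes, was at -0.31 with TOXFL and -0.40 with TOXdeltaN (adjusted p = 0.575 and 0.473), Mitf, at 9 to 18 counts, was at -0.22 with TOXFL (adjusted p = 0.903), and Pprc1 was at -0.37 with TOXdeltaN (adjusted p = 0.379). Ppargc1a had at most 8 counts in any library. Of the 3 remaining subunits only Cab39l was tested, with log2 fold changes of -0.0038 and 0.04.

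Over the 8 libraries, the genes whose log2 CPM followed Stk11 most closely among 9046 ranked genes with a mean of at least 8 CPM were Emd, Paip2b, Max, Ddx17 and Raly. Their Pearson r with Stk11 was 0.991, 0.991, 0.989, 0.982 and 0.98. These values describe 8 libraries in which the TOXFL GFP-positive pair sets much of the range. Emd, for the nuclear envelope protein emerin, stood at 36.1 and 19.1 CPM in that pair and between 54.4 and 66.9 in the other 6 libraries. Max, for the partner of MYC, was at 56.5 and 27.5 CPM there and between 76.4 and 116 elsewhere. In both genes replicate 2 of the pair was the lower, as for Stk11. Choosing genes by their r to Stk11 favours this order, so it is no further result. None of the other 8 members followed Stk11 as closely: r ran from -0.712 for Prkag1 to 0.188 for Stradb.

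**Figure D4:**
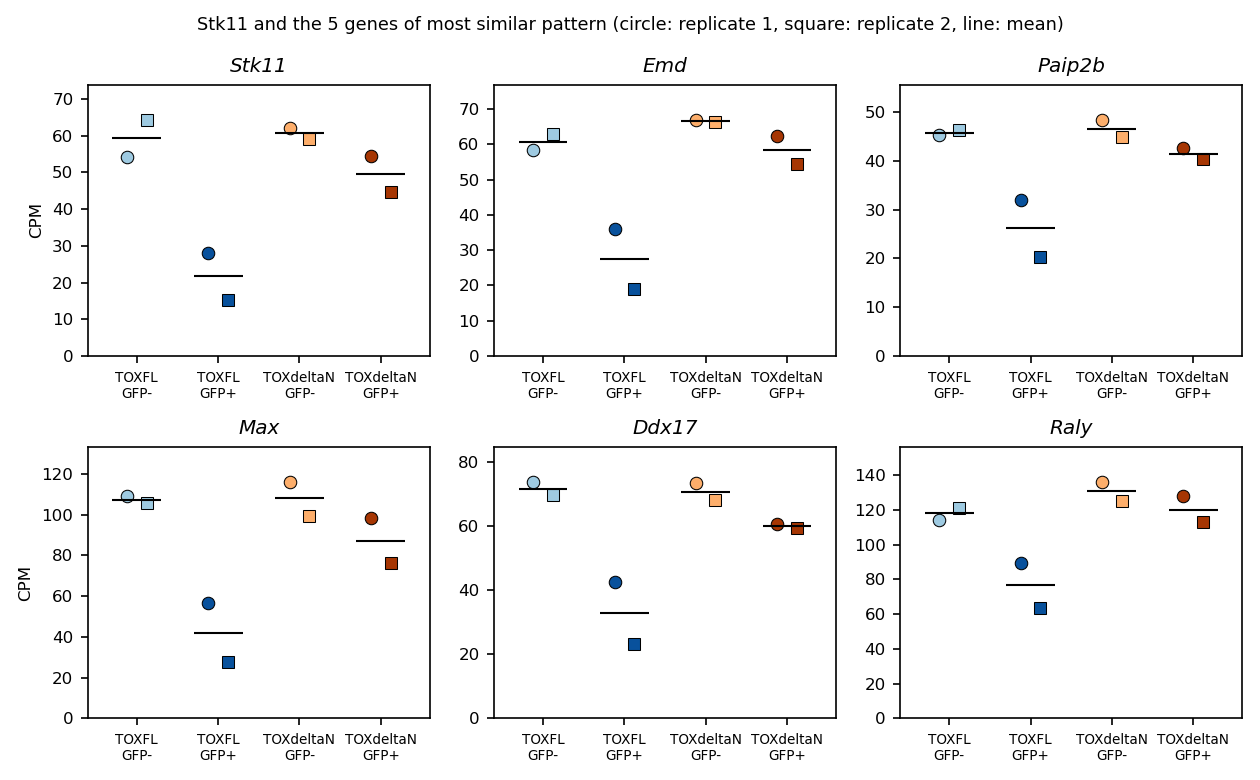
Level in CPM (y axis, from 0) by group (x axis) for Stk11 and the 5 genes with the highest correlation to it over the 8 libraries, with circles for replicate 1, squares for replicate 2 and lines for means. In each panel the TOXFL GFP-positive pair is the lowest, with replicate 2 under replicate 1, an order that the choice by correlation favours.

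The genes beside Stk11 on chromosome 10 were also read. Upstream lie Gpx4, at 141 and 148 CPM in TOXFL GFP-negative and 174 and 174 in TOXFL GFP-positive cells, and Sbno2, at 87.1 and 84.1 against 74.8 and 71.0. Downstream lie Cbarp, at 1.90 to 3.86 CPM over all libraries, and Atp5d, at 323 and 323 against 336 and 309 CPM. None had a TOXFL GFP-positive value as far below its GFP-negative pair as Stk11 did. Cbarp runs on the opposite strand and shares 232 exonic bp with the 3′ end of Stk11. How the estimated counts divide the reads there between the genes is uncertain. Cbarp had 54 to 115 counts per library.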

How the data were processed

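RNA was sequenced from 8 libraries of OT-I CD8+ T cells in 4 groups of 2. The deposited values are estimated counts per gene, made by the authors with bcl2fastq 2.20, cutadapt, STAR 2.6.1 and RSEM 1.2.28 on GRCm38, per the submitters' processing notes; the annotation release and the step to whole numbers are not given in the sources used here. They sum to 25059112 to 31240067 per library. The 92 spike-in rows were left out. Counting precision is limited further by amplification, since no molecular identifiers were reported, and intervals on 0 counts cover counting error only.

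edgeR 4.0.16 in R 4.3.3 (filterByExpr, TMM, glmQLFit and glmQLFTest on group means of all 8 libraries) was run on all 13329 tested genes, with Benjamini-Hochberg adjustment and a threshold of 0.05. Log2 fold changes, standard errors and 95% intervals come from that fit. The biological coefficient of variation was 0.1321, and 0.0958 with the replicate number as a block. The labels do not say what a replicate number shares. Deviations from the group means of same-numbered libraries correlated at 0.168 to 0.241 over the 6 pairs of groups. Among genes with a mean of at least 8 CPM they correlated at 0.255 to 0.485. The numbers were therefore treated as pairing, from the data alone, but only in the blocked fit. Unless the block is named, values come from the fit without it, which leaves this pairing out. The scripts were tested on simulated data.

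The members and the gene lists were chosen with earlier results of these data known. Genes named were the 9 members, Tox, list genes that passed in either fit (otherwise the 2 with the largest absolute log2 fold change), the 5 genes with the highest r to Stk11, and the 2 genes on each side of it. The lists were the remaining subunits, AMPK-related kinases, other AMPK kinases and regulators, AMPK substrates, mTORC1 and its input, CRTC coactivators and class IIa histone deacetylases, and mitochondrial and lysosomal gene regulators. The CCAAT motif was added after the sequences were seen. Alternatives were DESeq2 1.42.0, its size factors in edgeR, limma-voom (limma 3.58.1), no low-count filter, the block, the 2 groups alone, exon in place of coding length, and leaving out each library. Leaving out each library from the blocked fit was added after seeing the data. A further marker is not reported here.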

Additional observations from a re-analysis of the deposited data

How the results depend on the processing

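Size factors from DESeq2 in edgeR, limma-voom and the 2 groups alone left the number of members and list genes passing at 0 in every comparison they were run for. DESeq2, no low-count filter and the replicate block each called 1 member with TOXFL, Stk11, in place of 0, and no low-count filter called 1, Stk11, for the difference of the construct effects. Stk11 was picked for its level in this contrast, so these calls restate the selection. With TOXFL the same 3 settings each called 1 AMPK substrate, Foxo3, and the block alone called 1 other regulator of AMPK, Sesn2, and 1 deacetylase, Hdac4. With TOXdeltaN the same 3 called 2 other regulators, Sesn1 and Sesn2. The paired analysis with the replicate block changed no other call of a member or list gene; over all genes it moved the calls from 6 to 464 with TOXFL and from 4 to 220 with TOXdeltaN, where DESeq2 called 318 and 120, limma-voom 5 and 5, and no filter 678 and 516. The cause was not tested. With exon in place of coding length the levels per kilobase of all 9 members were lower, which a longer length makes certain. Parts of their order changed, as given above.

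Leaving out 1 library, with and without the block, gave 0 to 1 members with TOXFL, 0 to 1 with TOXdeltaN (Prkaa1) and 0 to 1 for the difference of effects (Stk11). With TOXFL it gave 0 to 2 AMPK-related kinases, 0 to 4 other regulators, 0 to 2 substrates, 0 to 2 mTORC1 genes and 0 to 2 CRTC or deacetylase genes. With TOXdeltaN the ranges were 0 to 2, 0 to 3, 0 to 6, 0 to 4 and 0 to 1 in that order, and 0 to 2 for mitochondrial and lysosomal regulators. For the difference of effects they were 0 to 1 other regulator, 0 to 3 substrates, 0 to 1 mTORC1 gene and 0 to 1 mitochondrial or lysosomal regulator. The largest list counts came without TOXdeltaN GFP-positive replicate 1 in the blocked fit, and with TOXFL equally without replicate 2 of that group. Those fits called 12.8% and 12.6% of all genes with TOXFL, and the first called 19.1% with TOXdeltaN and 3.24% for the difference of effects, so the counts are no result about the lists. Where leaving out a library leaves a group with 1, that library is assumed to vary like the other groups.

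Some values near 0 changed sign with a library left out of the fit without the block. With TOXFL the log2 fold change ranged from -0.20 to 0.07 for Prkaa1 and -0.39 to 0.20 for Prkab2. For the difference of effects it ranged from -0.14 to 0.12 for Strada, -0.16 to 0.10 for Stradb and -0.04 to 0.05 for Prkab1. With TOXdeltaN the range was -0.16 to 0.10 for Strada, -0.15 to 0.11 for Stradb, -0.03 to 0.00072 for Cab39 and -0.08 to 0.23 for Prkag2. Between the GFP-negative groups it ranged from -0.16 to 0.08 for Stk11, -0.03 to 0.20 for Strada, -0.09 to 0.17 for Stradb, -0.18 to 0.09 for Prkaa1, -0.45 to 0.14 for Prkab2 and -0.02 to 0.17 for Prkag2. Prkab2 had the fewest counts of the members, at 60 to 124 per library.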

Other observations

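The GFP-negative cells of the cultures, sorted for the absence of GFP, were also compared over the pathway lists. All 9 tested AMPK-related kinases were slightly higher in TOXFL than in TOXdeltaN GFP-negative cells, at a median log2 difference of 0.0561, where 49.1% of all tested genes were above 0. Their differences ran from 0.0253 to 0.192, the groups overlapped for 7 of the 9, and none passed the test (edgeR, 0 genes of any list). The widest list differences were those of Mitf at -0.62 and Deptor at -0.56, both adjusted p = 1. Hdac4 stood at 77.9 and 74.3 CPM in TOXFL GFP-negative cells and at 64.1 and 60.4 CPM in TOXdeltaN GFP-negative cells, a log2 difference of 0.29 that did not pass (adjusted p = 1), so its TOXFL comparison starts from the higher of the GFP-negative levels.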
